A study of Mus musculus with 2 samples.

Results

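Tcf1 binding was examined at 9 genes for costimulatory and adhesion coreceptors of T cells, namely Cd28, Icos, Cd27, Cd2, Cd226, Slamf6, Slamf1, Cd44 and Cd69. A deposited Tcf1 peak was counted for a gene when its summit lay in the gene body or within 50 kb of either end, in the GENCODE vM1 annotation of the mm9 mouse genome. This gave 63 of the 22286 deposited peaks. Of these, 58 (92.1%) were high-confidence, meaning that the fold enrichment reached 4, with a p below 1e-05 and a q below 0.05. Across all deposited peaks, 85.4% met the same criteria, which left 19042. The 9 gene regions did not overlap, so no peak was counted for more than 1 member. Peaks are numbered within each region by position along the chromosome.

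Tcf1 ChIP-seq was done with an anti-Tcf1 antiserum on naïve splenic CD8+ T cells of C57BL/6 mice, in 1 WT library and 1 Tcf1-deficient library, with cells sorted as GFP+ TCRbeta+ CD62Lhi CD44lo-med CD8+. The mice are labelled as carrying hCD2-Cre and Rosa26-lsl-GFP in both groups, with either wild-type or floxed Tcf1 and Lef1 alleles. The control title reads Tcf1-deficient and its genotype field Tcf1-/-Lef1-/-, whereas the study's methods describe Cd4-Cre and Tcf7 fl/fl mice for this ChIP-seq, and the sources do not settle whether Lef1 was also absent. The study's methods give 1 young adult age range and both sexes for all its mice, and do not say which mice went into either library. hCD2-Cre is driven by human CD2 sequence, the human counterpart of the member Cd2, and is most active in mature T cells. CD44 protein was part of the sort gate, so the cells with the highest CD44 were left out. The data hold binding sites and no expression, so neither the cell identity nor the loss of Tcf7 could be checked against marker genes.

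With duplicates removed, 36938606 fragments were left in the WT library and 27625250 in the Tcf1-deficient one. For each peak the WT pileup (WT fragments that covered the summit) was compared with a level expected from the Tcf1-deficient library, which never fell below a floor of 5.42 fragments. Fold enrichment is the ratio of these values, each raised by 1. Without replicate libraries there was no replicate check, peaks are not replicates of a condition, and the peak caller's p compares these libraries and not the genotypes. Intervals below are 95% intervals and cover counting error only. For fold enrichments the control level was held fixed, so its own counting error is not covered. PCR reads carried no molecular identifiers, so even the counting error is approximate. At the floor, the lowest pileup in the list was 18 fragments and a fold enrichment of 4 needed 25, so a site without a peak was not detectable at this depth and is not shown to be unbound.

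T cells need a costimulatory signal beside that of the antigen receptor to respond fully. CD28 and ICOS supply it through ligands of the B7 family, CD27 through the TNF receptor pathway, and CD2, CD226 and the SLAM receptors through contact with immunoglobulin-like ligands on partner cells. CD44 is a receptor for hyaluronan that marks antigen-experienced cells, and CD69 is an early activation marker that holds cells in tissue. Tcf1, encoded by Tcf7, is an HMG-box transcription factor of the Tcf/Lef family that binds a short core sequence, here searched as ATCAAAG.

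The summit sequences of 4 of the strongest peaks are shown to let their motif content be compared, because the strongest peak of each region did not hold the exact Tcf/Lef core. They are bases of the mm9 genome within 100 bp of the summit, 5′ to 3′ on the plus strand, with exon bases left off. Capitals mark the Runx core (TGTGGTT) and the ETS core with A first (AGGAAGT), in either orientation. Icos held neither, Slamf1 and Cd28 a Runx core alone, and Cd2 a Runx and an ETS core.
Icos, intron 1, chr1:61047330-61047530: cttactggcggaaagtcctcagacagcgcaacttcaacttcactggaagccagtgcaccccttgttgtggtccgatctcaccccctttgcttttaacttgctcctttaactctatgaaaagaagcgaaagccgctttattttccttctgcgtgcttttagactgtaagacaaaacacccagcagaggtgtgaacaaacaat
Slamf1, intron 3, chr1:173712747-173712947: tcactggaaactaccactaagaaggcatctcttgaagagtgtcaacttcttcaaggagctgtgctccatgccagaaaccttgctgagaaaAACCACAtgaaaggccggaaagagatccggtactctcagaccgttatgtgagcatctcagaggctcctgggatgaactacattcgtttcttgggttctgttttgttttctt
Cd28, promoter, chr1:60803063-60803201: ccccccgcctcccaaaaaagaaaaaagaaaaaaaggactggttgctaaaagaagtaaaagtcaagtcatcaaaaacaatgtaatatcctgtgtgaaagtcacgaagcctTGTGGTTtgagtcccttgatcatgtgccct
Cd2, past the gene end, chr3:101078822-101079022: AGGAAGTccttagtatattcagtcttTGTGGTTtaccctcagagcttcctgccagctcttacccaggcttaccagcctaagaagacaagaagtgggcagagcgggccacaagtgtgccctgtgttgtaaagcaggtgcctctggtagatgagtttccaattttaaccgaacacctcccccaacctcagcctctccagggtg

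The 5 sequences that follow hold the exact Tcf/Lef core, ATCAAAG or CTTTGAT on the other strand, in capitals, as are the same Runx and ETS cores and the form of the core with T first (TTCAAAG). They are shown to let the position of the core be compared, and come from 5 of the 7 regions with such a peak. In Cd44 and in Cd69 the centre of the core lay 8 bp from the summit, in Slamf1 23 bp, in Cd28 56 bp and in Slamf6 57 bp. The Cd69 window also held that form, 16 bp from the summit.
Cd44, past the gene end, chr2:102644287-102644487: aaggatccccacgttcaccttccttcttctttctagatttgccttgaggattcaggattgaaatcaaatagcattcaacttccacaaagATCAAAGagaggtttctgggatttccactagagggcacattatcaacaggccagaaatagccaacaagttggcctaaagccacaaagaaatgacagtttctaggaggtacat
Cd69, past the gene end, chr6:129179074-129179274: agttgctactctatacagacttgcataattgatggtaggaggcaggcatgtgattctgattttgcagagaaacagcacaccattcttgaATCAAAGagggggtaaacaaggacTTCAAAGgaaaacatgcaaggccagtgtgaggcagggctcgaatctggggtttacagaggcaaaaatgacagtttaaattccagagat
Slamf6, intron 6, chr1:173869729-173869929: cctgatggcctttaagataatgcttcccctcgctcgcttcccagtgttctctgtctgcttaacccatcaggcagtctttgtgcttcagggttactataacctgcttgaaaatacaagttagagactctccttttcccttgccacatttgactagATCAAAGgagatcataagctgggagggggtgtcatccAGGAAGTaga
Cd28, past the gene end, chr1:60868507-60868707: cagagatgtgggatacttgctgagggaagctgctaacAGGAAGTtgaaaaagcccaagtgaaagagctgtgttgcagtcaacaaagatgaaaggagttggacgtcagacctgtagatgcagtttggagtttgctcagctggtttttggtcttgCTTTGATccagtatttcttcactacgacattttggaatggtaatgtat
Slamf1, at the Cd84 start, chr1:173770835-173770999: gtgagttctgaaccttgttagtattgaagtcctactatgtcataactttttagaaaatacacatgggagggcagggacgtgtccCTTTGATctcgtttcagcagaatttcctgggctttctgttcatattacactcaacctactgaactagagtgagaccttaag

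Each of the 9 genes had high-confidence peaks. The counts were 10 at Cd28 and Cd69, 8 at Cd27 and Cd2, 5 at Cd226, Slamf6 and Cd44, 4 at Slamf1 and 3 at Icos. These counts depend on the window and the fold minimum. With 10 kb in place of 50 kb on each side, Cd28, Cd27 and Cd69 had 5 each and Slamf6 3. With 50 kb upstream only, Cd28, Cd27 and Cd2 had 5 each and Cd69 and Slamf6 3 each. At a fold minimum of 5, Cd2 had 4, Slamf6 3 and Slamf1 2. At a minimum of 8, Cd27 had 5, Cd2 4, Cd44 3, and Icos, Slamf6 and Slamf1 1 each. With 100 kb on each side, Cd44 and Icos had 8 each. Counting only peaks whose nearest protein-coding start was that of the gene left 4 at Cd27 and 3 at Slamf6. In the same kind of window, 66.5% of 22350 protein-coding genes had at least 1 high-confidence peak, with a median of 1 peak per gene. The members' median was 5 peaks. Icos exceeded 65.3% of protein-coding genes in its number of peaks, and Cd28 and Cd69 exceeded 98.0%. Regions differed in length, from 104 kb at Cd27 to 191 kb at Cd44. Per 100 kb of region, Cd69 had 9.26 peaks, Cd27 7.66, Cd2 7.14, Cd28 6.39, Slamf6 3.80, Slamf1 2.98, Cd226 2.89, Cd44 2.62 and Icos 2.45, against a median of 0.973 over all protein-coding genes. With 3 to 10 peaks a gene and no replicate, neighbouring genes in this order are not distinguished. How many protein-coding genes shared a region with a member was not controlled for.

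**Figure D1:**
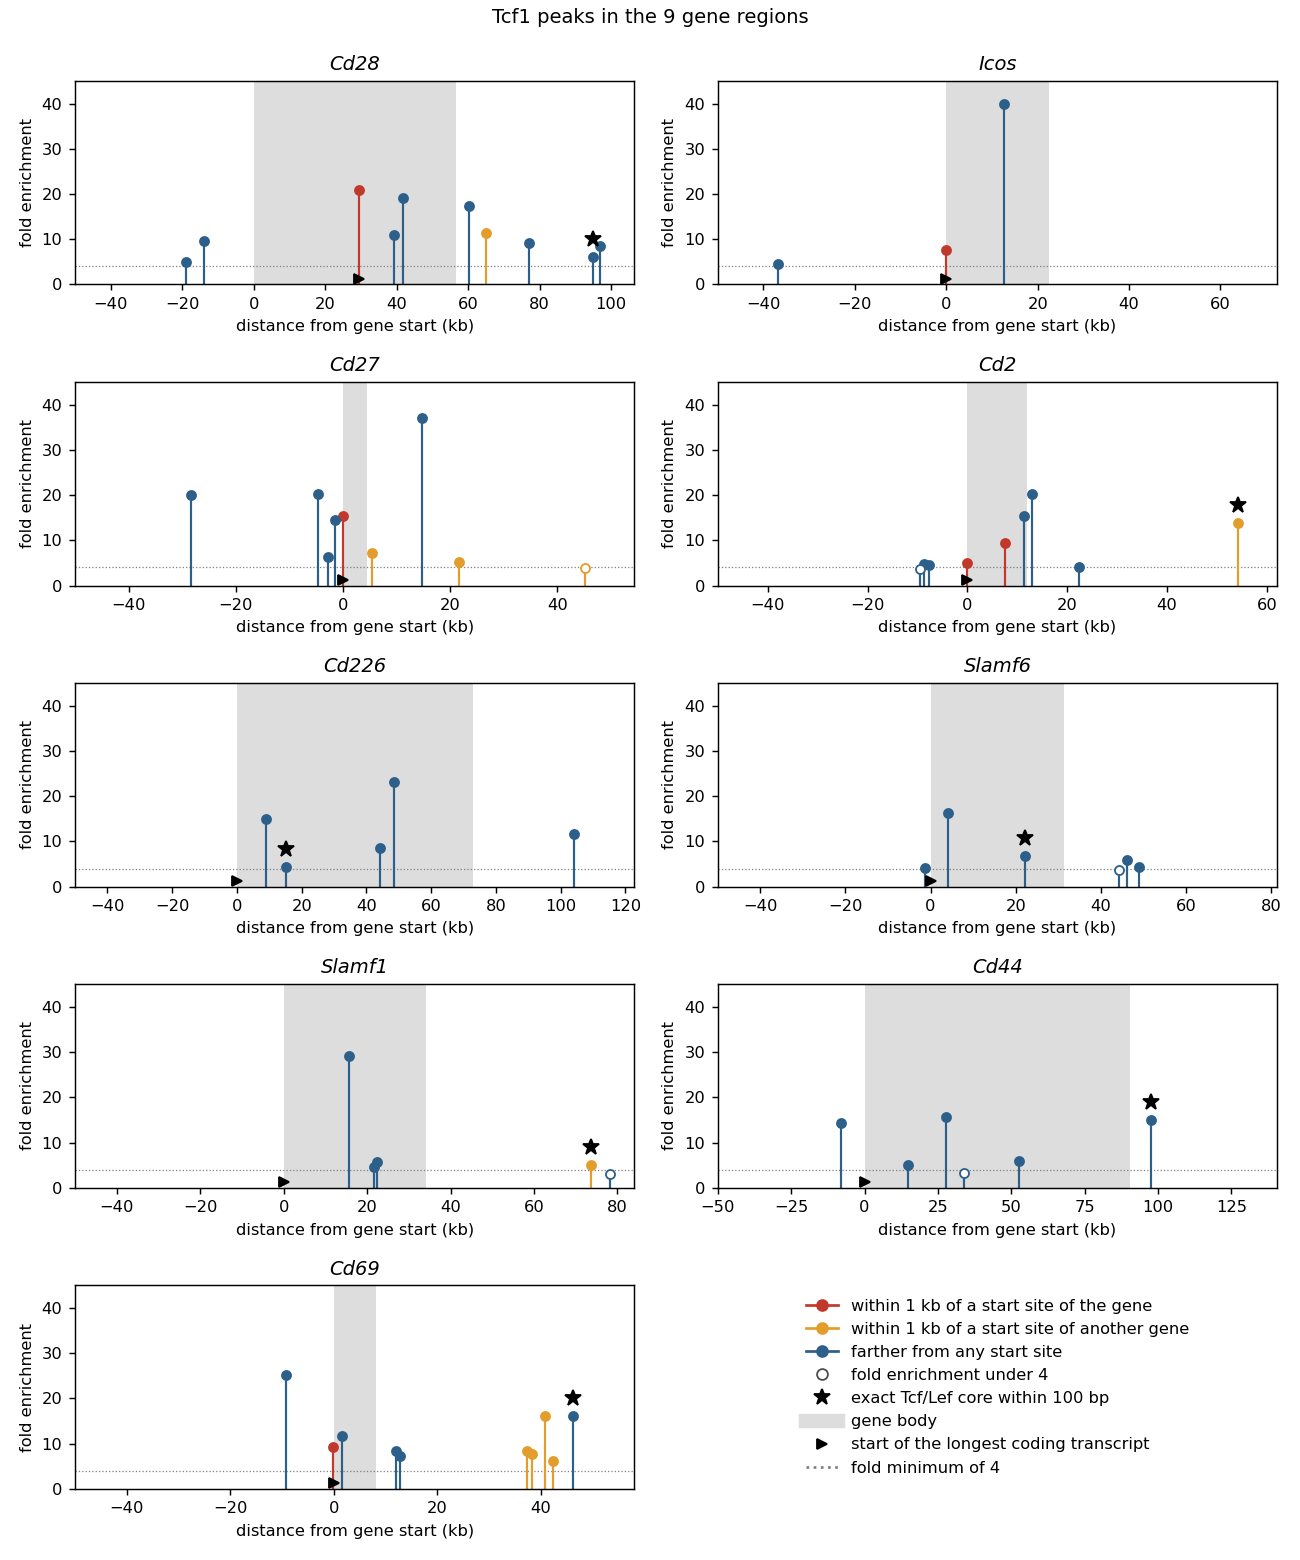
Fold enrichment of each deposited peak (y axis) against the distance of its summit from the annotated gene start in kb (x axis, in the direction of transcription), 1 panel per gene region. The 10 peaks of Cd69 fell mostly past the gene end, the tallest peaks of Icos (39.9) and Slamf1 (29.1) stood inside the gene body, and stars mark the 7 peaks with the exact Tcf/Lef core.

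**Figure D2:**
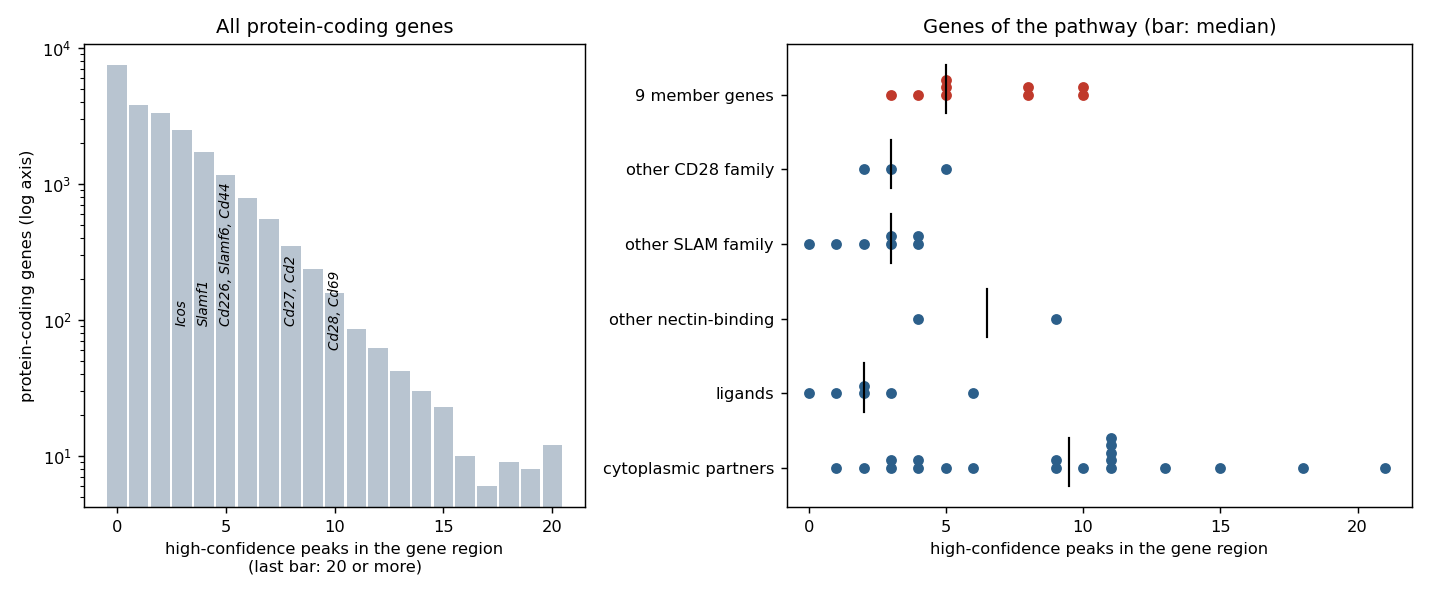
Left, number of protein-coding genes (y axis, log) by their count of high-confidence peaks in the gene body or within 50 kb (x axis), with the 9 members written at their counts. Right, the same count for each gene of the pathway lists, 1 point per gene, with a bar at each list's median, which was 5 for the members and 9.50 for the cytoplasmic partners. The latter list also holds the surface receptor gene S1pr1.

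Cd28 (ENSMUSG00000026012.2, chr1:60773644-60830203, plus strand), the receptor for CD80 and CD86, had 10 peaks, all high-confidence, with fold enrichments of 4.99 to 20.9. The strongest lay at its promoter. There 133 WT fragments stood against a control level of 5.42, a fold enrichment of 20.9 (17.5 to 24.7), with the summit 39 bp from the start of the longest coding transcript. That start lies 29.6 kb inside the annotated gene, whose first bases come from a non-coding transcript. In intron 1, a pair of peaks 9.73 and 12.1 kb past the coding start reached 10.9 and 19.2. Upstream of the annotated gene were 2 peaks (4.99 and 9.66), and past the gene end 5, of which the strongest, 3.77 kb past it, reached 17.3 (14.2 to 20.8). That peak lay within the gene Gm11579. Another, 8.51 kb past the gene end (11.4), lay 34 bp from a start of Gm11579, so it can be read as a promoter peak of that gene. The exact Tcf/Lef core occurred in 1 of the 10 peaks, 38.4 kb past the gene end, where 49 fragments against a control of 7.35 gave 5.98-fold enrichment (4.46 to 7.87). The Runx core occurred in 5 of the 10.

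Icos (ENSMUSG00000026009.8, chr1:61034771-61057164, plus strand), the inducible receptor of the same family, had the fewest peaks, 3, and the strongest of all 58. With 100 kb on each side it had 8 peaks, more than Slamf1 (6), Slamf6 (7) or Cd226 (7), and at a fold minimum of 5 it had 2, as did Slamf1. In intron 1, 12.7 kb from the start, the pileup was 255 WT fragments against a control level of 5.42, a fold enrichment of 39.9 (35.2 to 45.1), which ranked 237 among all high-confidence peaks. Its promoter peak, 78 bp from the start, had a pileup of 48 and a fold enrichment of 7.63 (5.67 to 10.1). The intervals of these peaks did not overlap. The third peak (4.52) lay 36.7 kb upstream, closer to the start of Ctla4 than to that of Icos. No Icos peak held the exact core or the Runx core.

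Cd27 (ENSMUSG00000030336.8, chr6:125182640-125187028, minus strand), a TNF receptor family member whose ligand is CD70, is the shortest of the 9 genes at 4.39 kb and had no peak with its summit in the gene body. Its promoter peak, 34 bp from the start, had a pileup of 98 against 5.42 and a fold enrichment of 15.4 (12.6 to 18.8). Upstream of it stood peaks at 1.57 kb (14.6), 2.77 kb (6.39), 4.70 kb (20.3) and 28.4 kb (20.1). The strongest, with 237 fragments and a fold enrichment of 37.1 (32.5 to 42.1), lay 10.3 kb past the gene end within Vamp1, a vesicle fusion gene, and its nearest start site was that of Vamp1, 6715 bp away. It was 1 of 3 peaks of 20 or more in the region, of which that at 28.4 kb lay closer to the start of Tuba3a than to that of Cd27. The start of Cd27 was the nearest protein-coding one for 4 of the 8 high-confidence peaks. Those 4, the promoter peak and the upstream peaks at 1.57, 2.77 and 4.70 kb, also lay within the annotated Vamp1 gene. Weaker peaks sat at the starts of Tapbpl (7.17) and Vamp1 (5.14), and 1 deposited peak at the start of Mrpl51 fell under the minimum, at 3.90. The exact core was in none of the 8 high-confidence peaks.

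Cd2 (ENSMUSG00000027863.7, chr3:101079822-101091862, minus strand), an adhesion receptor that binds CD48 in mice, had 8 high-confidence peaks, and a ninth 9.53 kb upstream was under the minimum at 3.71. The strongest stood 0.90 kb past the gene end, with 129 fragments against 5.42 and a fold enrichment of 20.3 (16.9 to 24.0), next to a peak of 15.4 in intron 4. The promoter peak, 94 bp from the start of the coding transcript, was among the weaker ones, with 31 fragments and a fold enrichment of 4.99 (3.44 to 7.01). Another peak, at 9.50 (7.29 to 12.2), lay in intron 3, 76 bp from the start of a retained-intron transcript. The exact core was found in 1 Cd2 peak, 42.2 kb past the gene end at the start of the predicted gene Gm12487, with 88 fragments and a fold enrichment of 13.9 (11.2 to 17.0). Of the 8 peaks, 4 held the Runx core.

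Cd226 (ENSMUSG00000034028.8, chr18:89366823-89439593, plus strand), the activating receptor for Pvr and Pvrl2, had 5 peaks and none within 1 kb of a start. Its introns held 4 of them. The strongest, in intron 3 and 48.4 kb from the start, had 161 fragments against a control level of 6.02, a fold enrichment of 23.1 (19.7 to 26.9). Intron 1 held a peak of 15.0, intron 3 others of 8.57 and 4.36, and the fifth (11.7) lay 31.3 kb past the gene end within Dok6. The peak of 4.36 (2.93 to 6.28), with 27 fragments, held the exact core 57 bp from its summit and a Runx core as well, the only one of the 58 with both.

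Slamf6 (ENSMUSG00000015314.4, chr1:173847646-173879083, plus strand) and Slamf1 (ENSMUSG00000015316.9, chr1:173697258-173731315, plus strand) are SLAM family receptors that bind themselves on neighbouring cells and signal through the adaptor SAP. Slamf6 had 5 high-confidence peaks, led by 1 in intron 1 with 103 fragments against 5.42, a fold enrichment of 16.2 (13.3 to 19.6). The others were weak, at 4.21 to 6.70, and the closest to its start was 1248 bp away (4.21). A sixth peak, 12.8 kb past the gene end, was under the minimum at 3.74. The exact core was in the intron 6 peak, with 42 fragments and a fold enrichment of 6.70 (4.87 to 9.0).

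Slamf1 had 4 high-confidence peaks and none at its own promoter. The strongest, in intron 3, had 186 fragments against 5.42, a fold enrichment of 29.1 (25.1 to 33.6), while the other 3 lay between 4.67 and 5.76. The intervals of the strongest peak and of each of the other 3 did not overlap. In intron 4, 2 of these sat 0.785 kb apart. The exact core was in the peak 39.6 kb past the gene end, 135 bp from the start of Cd84, another SLAM family gene, with 31 fragments and a fold enrichment of 4.99 (3.44 to 7.01). The fifth deposited peak, inside Cd84, was under the minimum at 3.10 and had the highest control level of the 63, 8.02.

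Cd44 (ENSMUSG00000005087.10, chr2:102651298-102741822, minus strand), the longest of the 9 genes at 90.5 kb, had 5 high-confidence peaks. They fell into 3 of nearly equal strength and 2 weaker ones. The strong ones were in intron 1 (100 fragments against 5.42, fold enrichment 15.7, 12.8 to 19.1), 6.91 kb past the gene end (95 fragments, 15.0, 12.1 to 18.2) and 7.97 kb upstream (91 fragments, 14.3, 11.6 to 17.6). Their intervals overlapped. The peak past the gene end held the exact core 8 bp from its summit. Introns 1 and 5 held the weaker peaks (4.99 and 5.92), and a sixth peak, in intron 1, was under the minimum at 3.27. No peak was within 1 kb of a Cd44 start, the closest being the upstream one.

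Cd69 (ENSMUSG00000030156.3, chr6:129217342-129225387, minus strand) had 10 peaks, all high-confidence. The strongest, 9.26 kb upstream, had 160 fragments against 5.42 and a fold enrichment of 25.1 (21.4 to 29.3). The promoter peak, 109 bp from the start, had 59 fragments and a fold enrichment of 9.35 (7.15 to 12), and an intron 1 peak reached 11.7. Past the gene end were 7 peaks, of 6.08 to 16.1. Of these, 4 lay within 1 kb of a start site of 2310001H17Rik, so they can be read as promoter peaks of that gene. The peak with the exact core was 38.2 kb past the gene end, with 112 fragments against 6.02 and a fold enrichment of 16.1 (13.3 to 19.3).

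Ordered by their strongest peak, the genes ran Icos (39.9), Cd27 (37.1), Slamf1 (29.1), Cd69 (25.1), Cd226 (23.1), Cd28 (20.9), Cd2 (20.3), Slamf6 (16.2) and Cd44 (15.7). The intervals of every neighbouring pair in this order overlapped. Those of Icos and Cd27 lay above that of Cd69 and all genes after it. For Cd27 this rests on a peak past the gene end whose nearest start site was that of Vamp1. Among peaks whose nearest protein-coding start was their own member's, the strongest of Cd27 was 20.3 (16.9 to 24.0), equal to that of Cd2 and with an interval that overlapped that of Cd69, and the other 8 genes kept their strongest peaks. A fold enrichment of 20 or more was reached by 9 of the 58 peaks (15.5%, exact binomial 7.35 to 27.4), against 7.98% of all high-confidence peaks. These lay in 7 of the 9 genes. The lowest strongest peak of the 7, that of Cd2 (20.3), was above the strongest peak of 88.0% of protein-coding genes, those without a peak included. Members had a median fold enrichment of 9.27, against 6.86 for all high-confidence peaks on the numbered chromosomes and X, with median pileups of 58.5 and 44.0 fragments. The median width was 564 bp (468 to 667) for member peaks, an interval that holds the 484 bp of all high-confidence peaks. The control level stood at the floor for 55 of the 58, and the highest of the other 3 was 7.35, so the fold enrichments followed the WT pileup. The fold minimum was less than 1 Poisson SD away for 8 of the 58.

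**Figure D3:**
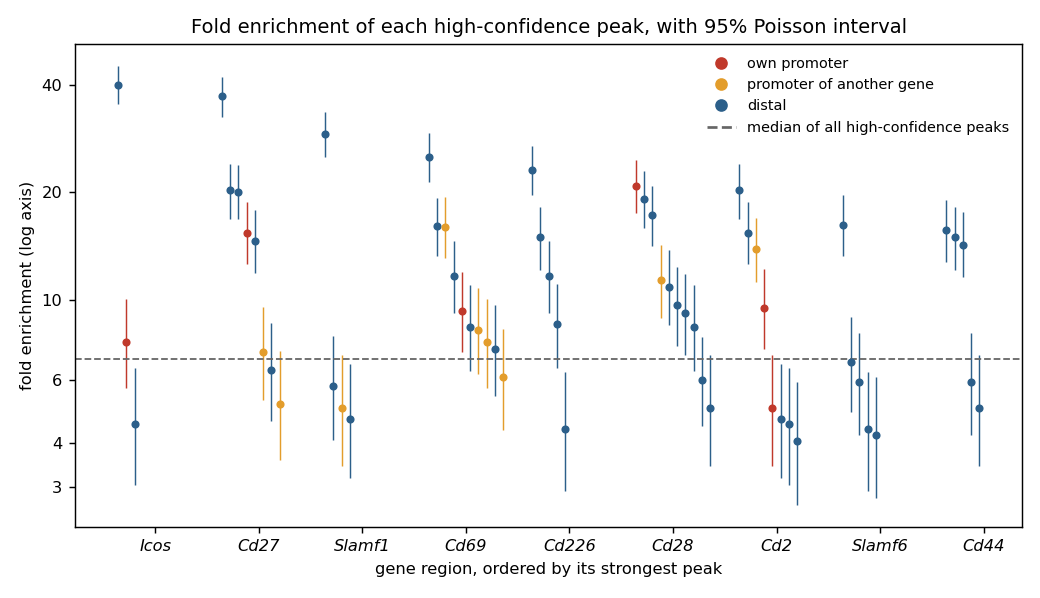
Fold enrichment (y axis, log) of each of the 58 high-confidence peaks, grouped by gene region (x axis, ordered by the strongest peak) and coloured by position, with 95% Poisson intervals of the pileup as bars. The dashed line is the median of all high-confidence peaks (6.86). The interval of the strongest peak lay above those of all other peaks of the region in Icos, Cd27, Slamf1, Cd69, Cd226 and Slamf6, and overlapped others in Cd28, Cd2 and Cd44.

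Most peaks lay away from promoters. Of the 58, 19 were in the gene body of their member, 16 upstream and 23 downstream. Of the 19, 18 were in introns of the longest coding transcript, 8 of them in intron 1, and 0 in its exons. An own promoter peak, within 1 kb of a start site of the gene, was found for 5 of the 9 genes (Cd28, Icos, Cd27, Cd2 and Cd69), against 32.8% of all protein-coding genes. Promoters of any gene held 15 of the 58 peaks (25.9%, 15.3 to 39), 6 of them promoters of the member itself and 9 of other genes, against 39.6% of all high-confidence peaks. The strongest peak was outside promoters in 8 of the 9 regions, and in 5 it was in an intron of the gene. For 49 peaks the nearest protein-coding start site was the member's own, and for 9 it was that of another gene. Binding was clustered along the chromosome. Another high-confidence summit lay within 10 kb of 44 member peaks (75.9%, 62.8 to 86.1), against 49.2% of all high-confidence peaks. The median GC content around the summit was 45.8% against 51.7%.

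The exact Tcf/Lef core lay within 100 bp of the summit in 7 of the 58 peaks (12.1%, 4.99 to 23.3). This was close to the 10.2% of all high-confidence peaks, and in windows 2 kb to each side the shares were 3.45% for members and 3.31% for all peaks. Outside promoters the core was in 11.6% of member peaks (3.89 to 25.1) against 13.5%. At promoters it was in 13.3% (1.66 to 40.5) against 5.13%, and both intervals hold the share of all peaks. The core peaks belonged to 7 genes, 1 each, and were missing at Icos and Cd27. Their fold enrichments ran from 4.36 to 16.1 with a median of 6.70, while the other 51 peaks ran from 4.05 to 39.9 with a median of 9.35. No interval was computed for these medians, so a difference in strength between the 7 and the 51 is not shown. None of the 9 member peaks of 20 or more held the core, which allows a share of up to 33.6%, and 20.6% of all such peaks held it, so a difference was not detectable with this number of peaks. The form with T first was in 11 member peaks (19.0%, 9.87 to 31.4, against 10.7%), and either form in 17 (29.3% against 19.9%). The core read backwards (GAAACTA), searched as a control, was in 4 (6.90%, 1.91 to 16.7, against 2.40%). The 5 peaks under the fold minimum did not hold the exact core.

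Among the other motifs, the Runx core was the most frequent at the member summits. It was in 15 peaks (25.9%, 15.3 to 39, against 15.5% of all high-confidence peaks and 7.76% of the member flanks), and 5 of the 9 strongest peaks held it. The Runx share of all peaks of like strength was not computed, so the 5 of 9 has nothing to be read against. Outside promoters, where the Runx core was more frequent in all peaks too, the shares were 30.2% (17.2 to 46.1) and 21.7%. The GATA core (AGATAA) was in 12 member peaks (20.7%, 11.2 to 33.4, against 7.42%), but also in 12.9% of the member flanks and 10.8% of all flanks. ETS cores of either form were in 11 peaks, AGGAAGT in 15.5% against 16.4% and CGGAAGT in 5.17% against 6.93%. The E-box (CAGCTG) was in 8.62% against 12.2%, the AP-1 site (TGANTCA) in 1 peak (1.72% against 6.37%), and the NF-kappaB site in 0 against 0.436%. The GC box (GGGCGG), common at promoters of CpG islands, was in 3 peaks (5.17%, 1.08 to 14.4) against 26.6%. Outside promoters it was in 1 of 43 member peaks (2.33%, 0.0589 to 12.3), an interval that holds the 8.93% of all peaks. At promoters it was in 2 of 15 member peaks (13.3%, 1.66 to 40.5), an interval below the 53.5% of all promoter peaks. Both strands were searched, a match is a description of the letters, and whether Runx or GATA proteins were bound was not measured.

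**Figure D4:**
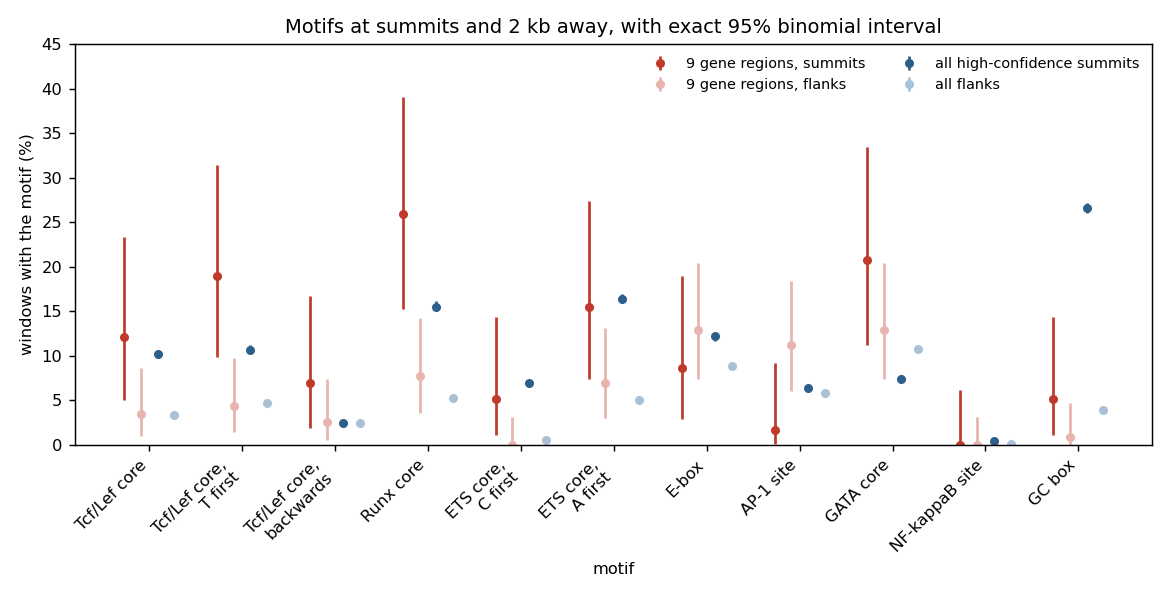
Share of windows of 201 bp that held each of the 11 motifs (y axis, %), at the 58 member summits and at all high-confidence summits (dark points) and in windows 2 kb to each side (light points). Bars are exact 95% binomial intervals. The member points are highest for the Runx core (25.9%), while the GC box is lower at member summits (5.17%) than at all summits (26.6%).

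Other genes of these pathways were counted in windows made in the same way. The CD28 family genes that are not members, Ctla4 (5 peaks), Btla (3) and Pdcd1, all had peaks. Of the 7 other SLAM family genes, 6 had peaks, with a median of 3. Cd84 and Slamf9 had 4 each and Slamf8 none. The 4 peaks of Cd84 and 1 of the 5 at Ctla4 also lay in a member region and are the same peaks. Peaks shared among the listed genes themselves were not counted, so these genes are not independent. Cd48, Ly9 and Slamf7, all on chromosome 1, had the same strongest value, 14.0. The nectin-binding receptors Cd96 (9 peaks, strongest 52.7) and Tigit (4 peaks, strongest 38.0), which share ligands with Cd226, both had a strongest peak above that of Cd226 (23.1). Of the 6 ligand genes, whose products sit on partner cells, 5 had peaks. Pvr had 6 and Icosl 3, Cd70, the ligand of Cd27, had none, and the list's median was 2, with 0 of 6 having an own promoter peak. All 20 genes on the list of cytoplasmic partners and signal carriers, which also holds the surface receptor gene S1pr1, had peaks, with a median of 9.50. Of these, 18 had an own promoter peak. Among them the kinase gene Prkcq had 18 peaks, the strongest at 31.8. These counts stand beside 66.5% of all protein-coding genes with a peak and 32.8% with an own promoter peak.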

How the data were processed

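The authors aligned the reads to mm9 with Bowtie2 (2.2.5) and called peaks with MACS2 (2.1.1), the Tcf1-deficient library serving as control for the WT library, and their processing notes also name FastQC. The deposited pileup is a signal, the coverage by WT fragments at the summit. The deposited fold enrichment is the ratio of pileup to the local control level, each plus 1, and the deposited −log10 p and −log10 q come from the peak caller. The header says that q was not calculated, yet each peak has a q value. It also says that the larger library, here WT, was scaled to the smaller, a factor of 0.748, yet all 22286 deposited pileups were whole numbers (within 1e-06), so they were taken as unscaled fragment counts, on which the Poisson intervals rest. The control level was computed back from pileup and fold enrichment.

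Member genes, pathway lists and motifs were chosen with earlier results of these data known. Positions came from GENCODE vM1 and bases from NCBIM37, which is mm9, and 0 peaks ended past a chromosome. Comparisons with all peaks used the 19038 high-confidence peaks on the numbered chromosomes and X, and promoters were 1 kb on each side of a start site of any transcript. Poisson and Clopper-Pearson intervals (95%) were computed with Python 3.11.15, pandas 2.3.3, scipy 1.17.1 and pysam 0.24.0, figures were drawn with matplotlib 3.10.9, and the scripts were tested on simulated data. No test between groups was run, since each group is 1 library. By rule the text names, for each member, the strongest peak, own promoter peaks and peaks with the exact core, and of each pathway list the 2 genes with most peaks and those with none. Other peaks, S1pr1, Cd48, Ly9, Slamf7 and Pdcd1, the remaining CD28 family gene, were named after their values were seen. The values of 1 gene of the cytoplasmic partners and 1 summit sequence are not reported here. A position-weight matrix was not used here. Alternatives were other fold minimums, a stricter q, other windows, promoter sizes and core definitions.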

Additional observations from a re-analysis of the deposited data

How the results depend on the processing

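The number of high-confidence peaks over the 9 regions fell from 58 to 34 at a fold minimum of 8, to 38 with 10 kb in place of 50 kb on each side, and to 35 with the 50 kb taken upstream only. Other settings gave 46 to 79. The same minimum moved the median fold enrichment from 9.27 to 15.2, since it leaves out the weaker peaks. Allowing A or T at the first base of the core raised its share from 12.1% to 29.3%, and other settings gave 6.90% to 13.8%. The promoter share ran from 15.5%, with start sites of protein-coding genes only, to 36.2%, with 2.5 kb on each side. Of 30 alternatives to these 4 results, 25 stayed within 1.5 times the count or within the interval of the reported value. Of 72 alternative counts for single genes, 22 moved by over 1.5 times. No paired analysis was possible because each group is 1 library. Depth limits the peaks near a pileup of 25 fragments, whose intervals span the fold minimum.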
